A study of Homo sapiens with 6 samples.

Results

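The genes described here are 54 genes of mitosis, chosen by name: the kinases and cyclins that start it, the spindle checkpoint, the kinetochore, the spindle motors, the condensin complex, the anaphase machinery and the proteins of cytokinesis. A row was found by gene symbol for 52 of the 54 among 12499 genes of the deposited count table. *NUSAP1* and *PRC1* had no row under their symbols or identifiers and were not analyzed here. All 52 passed the expression filter and were tested, with at least 25 counts in every library.

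The libraries came from HaCaT cells, a spontaneously immortalized human keratinocyte line. The cells received a lentivirus, either LV-*ATF7* carrying the transcription factor *ATF7* or the negative control LV-NC. The infection lasted 48 hours and was followed by 24 hours in high glucose, which both groups shared, and 3 libraries were made per group. The vector also carries puromycin resistance, and neither cell sorting nor the share of infected cells is given in the sources used here. The labels do not say whether the replicates were separate cultures, so p-values measure only the spread between these libraries. Levels are given as CPM, read counts scaled to a common library total, after normalization by the trimmed mean of M-values (TMM), and differences are on the log2 scale.

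Mitosis is the phase in which duplicated chromosomes are condensed, attached through kinetochores to spindle microtubules and pulled to opposite poles. CDK1 bound to cyclin B drives entry, the spindle checkpoint delays anaphase until every kinetochore is attached, and the anaphase-promoting complex then marks cyclin B and securin for destruction. Most genes of this machinery are transcribed late in the cell cycle, with low levels in resting cells, and their mRNAs are widely read as a sign of how many cells are cycling. In skin, mitosis takes place mainly in the basal layer of the epidermis. In bulk RNA, fewer cycling cells and less mRNA per cycling cell cannot be told apart.

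Several facts of the whole data set bear on these genes. Total counts ran from 16686472 to 20562768 per library, so counting error is small beside the differences described. The chi-square per gene between replicates was 2.84 to 10.4, above sampling noise, but 66.9 and 74.6 for the pairs that hold LV-NC replicate 1. *ATF7* was at 50.6, 46.4 and 52.2 CPM in LV-NC and at 21.9, 25.7 and 28.0 CPM in LV-*ATF7*, so it went against the labels, and each direction given below follows labels that *ATF7* contradicts. All 10 keratinocyte markers were listed, with *KRT14* at 12.5 CPM or less in every library and a summed level of 1985 CPM in LV-NC replicate 1, 2894 and 2962 CPM in replicates 2 and 3 and 7748 to 8464 CPM in LV-*ATF7*. The markers did not move together. *KRT5* was at 99.96, 355.5 and 343.8 CPM in LV-NC and 3215 to 3622 CPM in LV-*ATF7*, whereas *KRT6A* was at 1.28, 95.1 and 92.8 CPM and 19.1 to 19.9 CPM. *KRT14*, *KRT17* and *CDH1* were also lower in each LV-*ATF7* library than in LV-NC replicates 2 and 3. Of the fibroblast, macrophage and endothelial markers, 3 of 8, 3 of 8 and 2 of 6 had a row, with *PTPRC*, *PECAM1* and *PDGFRA* among those without one. The summed fibroblast markers were at 35.1 to 42.7 CPM in LV-NC and 17.4 to 21.8 CPM in LV-*ATF7*, and the summed macrophage markers at 5.57 to 8.13 and 9.38 to 12.7 CPM. Both sums joined opposite directions. Most of the fibroblast sum was *COL1A1*, at 33.1 to 41.1 and 15.1 to 18.9 CPM in the same order. *DCN* was instead at 1.66, 0 and 0 CPM in LV-NC and 2.18 to 3.01 CPM in LV-*ATF7*. *CD14* was at 1.51 to 1.73 CPM in LV-NC and 7.09 to 9.57 CPM in LV-*ATF7*. *CSF1R* went the other way, at 2.2 to 3.32 and 0.447 to 0.774 CPM. The groups overlapped for *ITGAM* and *THY1*. The summed endothelial markers were at 1.124 to 5.499 CPM in LV-NC and 84.6 to 89.9 CPM in LV-*ATF7*, nearly all of it *CDH5*. The part of these markers in the results was not tested.

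Promoter sequences help to show what many of these genes share. Late cell cycle genes are known to be repressed in resting cells by the DREAM complex and activated by MuvB with B-MYB and FOXM1, which meet DNA at the cell cycle genes homology region (CHR, letters TTTGAA), often near CCAAT boxes bound by NF-Y. RefSeq (GRCh38.p14) promoter windows of 250 bases before to 50 after a start were matched for 46 of the 54 genes, with 60 windows in all. TTTGAA on either strand was found in 37 of these 60 windows, or 61.7%, against 15.2% of all 35116 windows. CCAAT on either strand was found in 68.3% against 34.6%, and both sets of letters in 46.7% against 5.90%. Within 50 bases of the start, TTTGAA was in 30 of the members' 60 windows and in 4.62% of all windows. The following stretches, upstream of the start and outside GENCODE release 29 exons, are shown 5′ to 3′ on the gene's strand for genes described below, with TTTGAA and CCAAT, or their reverse complements TTCAAA and ATTGG, in capitals. Adjoining matches can share letters, as TTTGAA and ATTGG do in *MKI67*.
MKI67 (chr10:128126424-128126533, minus strand): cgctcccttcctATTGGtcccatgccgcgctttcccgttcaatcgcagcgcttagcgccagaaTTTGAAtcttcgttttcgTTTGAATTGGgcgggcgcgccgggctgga
ESPL1 (chr12:53268189-53268298, plus strand): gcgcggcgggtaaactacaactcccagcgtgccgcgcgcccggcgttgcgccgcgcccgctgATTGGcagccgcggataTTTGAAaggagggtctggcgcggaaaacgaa
KIF11 (chr10:92593020-92593129, plus strand): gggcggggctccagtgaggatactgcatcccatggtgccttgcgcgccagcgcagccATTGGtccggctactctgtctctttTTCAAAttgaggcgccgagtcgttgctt
KIF4A (chrX:70289994-70290089, plus strand): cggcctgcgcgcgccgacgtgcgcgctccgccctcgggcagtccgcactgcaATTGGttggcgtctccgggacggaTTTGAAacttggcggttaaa
CDC20 (chr1:43358871-43358954, plus strand): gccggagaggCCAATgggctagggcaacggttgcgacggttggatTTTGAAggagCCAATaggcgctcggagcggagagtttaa
NCAPH (chr2:96335656-96335765, plus strand): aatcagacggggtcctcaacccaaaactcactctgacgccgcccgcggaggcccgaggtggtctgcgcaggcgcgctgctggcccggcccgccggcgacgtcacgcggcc
The first 5 hold TTTGAA or its reverse complement beside CCAAT letters, whereas the stretch of *NCAPH* holds neither and is shown as the contrast. A match of letters is a description and not a binding site.

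The clearest pattern among the mitosis genes ran within the LV-NC group. In LV-NC replicate 1, each of the 52 genes was lower than in both LV-NC replicates 2 and 3, which held for 43.9% of all genes. Each was also lower by at least 1.5-fold against the mean of those replicates, where 10.7% of all genes were lower and 10.1% higher by that much. The median difference was -2.26 on the log2 scale, or 4.80-fold, against 0.0084 for all genes, and the folds ran from 1.56 for *BUB3* to 8.29 for *MYBL2*. Summed over the 52 genes, the level was 1553 CPM in LV-NC replicate 1, 6875 and 6783 CPM in replicates 2 and 3, and 2624, 2554 and 2528 CPM in the LV-*ATF7* libraries. No test was made, because this is 1 library against 2 of its own group. Taking each LV-*ATF7* library against the other 2 of its group gave member differences from -0.44 to 0.43, and none reached 1.5-fold. The same library stood apart over all genes as well, with 20.8% of them past 1.5-fold against its group, whereas the share was 0.840% to 1.10% in the LV-*ATF7* libraries. Its total of 17009232 lay between those of replicates 2 and 3. Its 100 most abundant genes took 15.3% of counts, the lowest share of the 6 libraries, against 16.2% and 16.4% in those replicates, and its TMM factor of 1.098 was the highest, against 1.043 and 1.035. The part of composition in these differences was not tested.

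**Figure D1:**
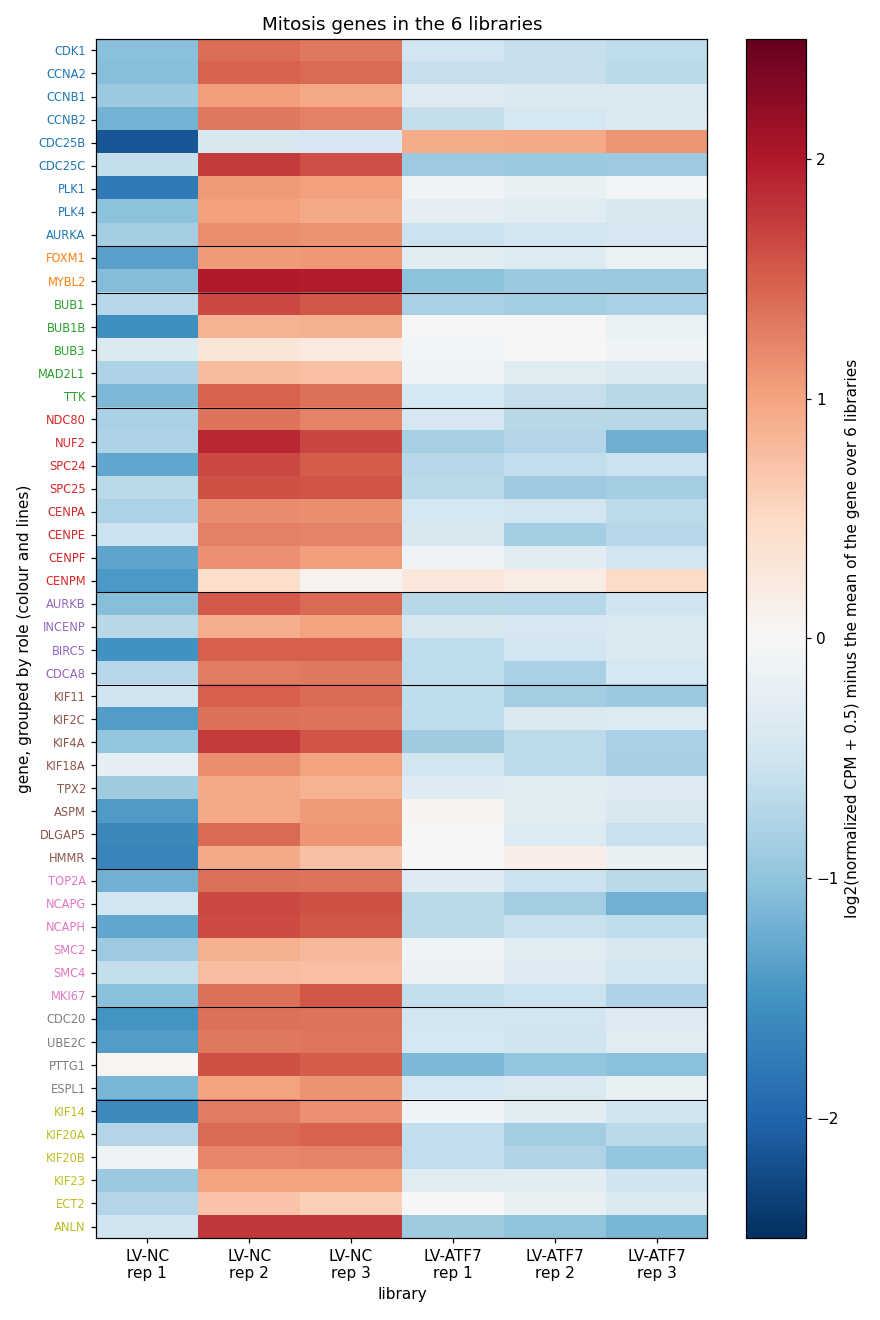
Heat map of 52 mitosis genes (rows, grouped by role, with gene names colored by role) in the 6 libraries (columns). Color gives log2(normalized CPM + 0.5) minus the mean of the gene over the 6 libraries. LV-NC replicates 2 and 3 are the high columns for all genes but *CDC25B* and *CENPM*, and LV-NC replicate 1 is as low as the LV-*ATF7* libraries or lower for most.

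The study's comparison is LV-*ATF7* against LV-NC. By the labels, 26 of the 52 genes fell and 1 rose in LV-*ATF7* at an adjusted p below 0.05, taken from the quasi-likelihood test of edgeR with Benjamini-Hochberg adjustment over 12462 genes. Of all genes, 67.6% were called, 32.9% as lower and 34.7% as higher. The other 25 were not called, although 24 of them also had a negative log2 fold change. The median log2 fold change of the members was -1.33, against 0.00016 for all genes. The standard errors of the members were 0.17 to 0.69, since the LV-NC group joined replicate 1 with replicates 2 and 3. When LV-NC replicate 1 was left out, they were 0.069 to 0.17, and 50 members fell, 1 rose and 1 was not called, where 80.1% of all genes were called, 40.2% as lower and 39.9% as higher. The median log2 fold change was then -1.80. Leaving out LV-NC replicate 2 or 3 instead gave 16 and 15 calls, and leaving out LV-*ATF7* replicate 1, 2 or 3 gave 14, 15 and 9. In the same order, 7720, 7614, 7382, 7290 and 7463 of all genes were called, of 12468 to 12497 tested. The 9 genes called in every one of these fits were *CDC25B*, *CDC25C*, *BUB1*, *KIF11*, *KIF18A*, *NCAPG*, *PTTG1*, *KIF20B* and *ANLN*. These were also the 9 members, of 52, whose groups did not overlap, a separation that 72.7% of all genes had.

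**Figure D2:**
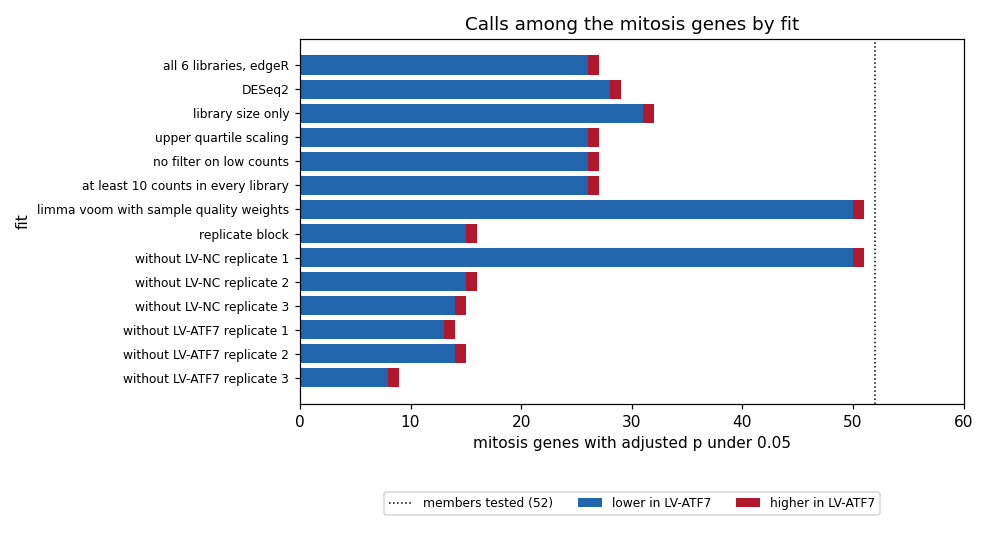
Number of mitosis genes with an adjusted p under 0.05 (x axis) in each fit (y axis), with those lower in LV-*ATF7* in blue, those higher in red and the 52 tested as a dotted line. The fit of all 6 libraries called 27, the fit without LV-NC replicate 1 and the fit that weighted libraries by quality called 51 each, and the fit without LV-*ATF7* replicate 3 called 9. Of all genes tested, these fits called 8429, 10011, 10391 and 7463.

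The position of LV-NC replicate 1 relative to the LV-*ATF7* libraries differed between genes. It lay below the lowest LV-*ATF7* library for 39 of the 52 genes, within their range for 5 and above the highest for 8, against 47.3%, 9.89% and 42.8% of all genes. For 10 of the 39, the lowest LV-*ATF7* library was at least 2-fold higher, a count that was not made over all genes. Among the 10 was *CDC25B*, whose LV-*ATF7* libraries lay above every LV-NC library. The genes above the range were the 8 genes that fell in every fit. This restates that their groups did not overlap, since replicate 1 was the lowest LV-NC library for each of the 52.

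*MKI67* encodes Ki-67, the protein that coats mitotic chromosomes and serves as the usual proliferation marker. It was at 133.8, 721.4 and 811.6 CPM in LV-NC replicates 1, 2 and 3 and at 183.3, 191.8 and 162.4 CPM in LV-*ATF7*. The means were 555.6 ± 368.1 and 179.1 ± 15.1 CPM (SD, n = 3 each). LV-NC replicates 2 and 3 stood above the other 4 libraries, and replicate 1 stood below all of them. *MKI67* fell in LV-*ATF7* by the labels, with a log2 fold change of -1.63 (standard error 0.55, edgeR adjusted p = 0.0282). It was -2.12 without LV-NC replicate 1, and replicate 1 itself was lower than replicates 2 and 3 by 5.70-fold. The gene lies on chromosome 10, and the promoter shown above holds TTTGAA at 2 places.

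Among the kinases, cyclins and phosphatases of mitotic entry, 4 of 9 genes fell, 1 rose and 4 were not called. Of all genes, 67.6% were called, 32.9% as lower and 34.7% as higher. *CDK1*, the catalytic kinase of mitosis, was at 20.02, 111.5 and 105.9 CPM in LV-NC and at 30.0, 28.1 and 26.9 CPM in LV-*ATF7*, and it fell (log2 fold change -1.48, edgeR adjusted p = 0.0362). *CCNA2*, its cyclin A2 partner, and *AURKA*, the centrosomal kinase Aurora A, also fell, by 1.61 and 1.21. *CCNB1* and *CCNB2*, the B-type cyclins, had log2 fold changes of -0.96 and -1.30 and were not called, and both were lower in LV-NC replicate 1 than in any other library.

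The CDC25 phosphatases remove the inhibitory phosphates from CDK1. *CDC25C* was at 7.44, 39.6 and 36.1 CPM in LV-NC and at 5.86, 5.76 and 5.86 CPM in LV-*ATF7*, so LV-NC replicate 1 was the nearest to LV-*ATF7* but still above it. Its log2 fold change was -2.25 (standard error 0.54, edgeR adjusted p = 0.00629). *CDC25B* had the opposite direction and was the only member that rose in the fit of all libraries. It was at 53.8, 180.8 and 177.5 CPM in LV-NC and at 453.9, 458.7 and 515.1 CPM in LV-*ATF7*, with a log2 fold change of 1.79 (standard error 0.40, edgeR adjusted p = 0.00427). Yet in LV-NC replicate 1 it was lower than in replicates 2 and 3 by 3.31-fold, as the other members were. The groups did not overlap for either phosphatase.

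*PLK1*, the polo-like kinase of centrosome maturation and cytokinesis, showed the reverse of *CDC25C*. Its levels were 18.8, 135.6 and 132.8 CPM in LV-NC and 60.9, 57.3 and 62.0 CPM in LV-*ATF7*. The LV-*ATF7* libraries thus lay between LV-NC replicate 1 and the other 2, and the log2 fold change of -0.67 was not called (adjusted p = 0.332). *PLK4*, the kinase of centriole duplication, had the same order of libraries and a log2 fold change of -0.91, not called.

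Both transcription factors of the late cell cycle program are members. *MYBL2* encodes B-MYB, the MuvB partner, and it was the gene with the largest fall in LV-*ATF7* among the 52. Its levels were 25.3, 214.7 and 211.5 CPM in LV-NC and 26.2, 28.1 and 28.0 CPM in LV-*ATF7*, with a log2 fold change of -2.45 (standard error 0.66, edgeR adjusted p = 0.0109). LV-NC replicate 1 was within 1 CPM of the lowest LV-*ATF7* library. *FOXM1* was at 23.7, 130.4 and 132.1 CPM in LV-NC and at 50.1, 48.5 and 55.1 CPM in LV-*ATF7*, and its log2 fold change of -0.90 was not called (adjusted p = 0.161). The LV-*ATF7* libraries were higher than LV-NC replicate 1 for *FOXM1* and close to it for *MYBL2*. GENCODE places 15.9% of the exon bases of *FOXM1* in exons of *ITFG2* on the opposite strand, and whether counting used strand is not given.

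Of the 5 spindle checkpoint genes, 2 fell and 3 were not called, where 32.9% of all genes fell. *BUB1*, the checkpoint kinase at kinetochores, was at 22.4, 117.3 and 110.3 CPM in LV-NC and at 21.1, 20.2 and 21.1 CPM in LV-*ATF7*, with a log2 fold change of -2.002 (standard error 0.52, edgeR adjusted p = 0.00938). *TTK*, the MPS1 kinase, fell by 1.56. *BUB1B*, which encodes BUBR1 of the mitotic checkpoint complex, had a log2 fold change of -0.51 and *MAD2L1*, which encodes MAD2, one of -0.68. *BUB3*, a checkpoint protein that non-dividing cells also express, varied least of the members. It was at 155.2, 247.2 and 236.2 CPM in LV-NC and at 191.4, 200.02 and 187.1 CPM in LV-*ATF7*, a log2 fold change of -0.14 (standard error 0.17) that was not called, although LV-NC replicate 1 was again the lowest library.

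Of the 8 kinetochore and centromere genes, 6 fell and 2 were not called, where 32.9% of all genes fell and 67.6% were called. The NDC80 complex is the microtubule-binding arm of the kinetochore. Each of its 4 subunits fell in the fit of all libraries, by 1.51 for *NDC80*, 2.33 for *NUF2*, 1.90 for *SPC24* and 2.16 for *SPC25*. *NDC80* and *SPC24* were not called when any library but LV-NC replicate 1 was left out. *NUF2* and *SPC25* were not called without LV-*ATF7* replicate 3. *NUF2* was at 5.94, 39.8 and 34.4 CPM in LV-NC and at 5.64, 6.07 and 4.20 CPM in LV-*ATF7*, so that replicate 1 lay inside the LV-*ATF7* range. *CENPA*, the histone H3 variant of centromeres, fell by 1.31, and *CENPE*, a kinetochore motor, fell by 1.54. *CENPF*, a large kinetochore protein of late cell cycle, was at 39.1, 216.9 and 203.5 CPM in LV-NC and at 90.9, 81.0 and 70.6 CPM in LV-*ATF7*, with a log2 fold change of -0.92 that was not called. *CENPM*, a subunit of the constitutive centromere network, went its own way. It was at 1.66, 7.39 and 5.67 CPM in LV-NC and at 6.48, 6.12 and 7.69 CPM in LV-*ATF7*. Its level was low in LV-NC replicate 1 alone, its log2 fold change was 0.46 (adjusted p = 0.377) or 0.021 without that library, and it was the 1 member called in no fit.

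The chromosomal passenger complex corrects faulty attachments and later guides the cleavage furrow. Of its 4 genes, *AURKB* (Aurora B), *INCENP* and *CDCA8* (borealin) fell and *BIRC5* (survivin) was not called, where 32.9% of all genes fell. *AURKB* was at 27.0, 167.1 and 153.3 CPM in LV-NC and at 35.3, 34.5 and 40.4 CPM in LV-*ATF7*, with a log2 fold change of -1.66. *INCENP*, the scaffold, was at 53.0, 162.7 and 174.1 CPM in LV-NC and at 64.9, 64.3 and 66.2 CPM in LV-*ATF7*, with a log2 fold change of -0.996 and an edgeR adjusted p of 0.0450, the highest among the genes called. *BIRC5* was lower by 8.01-fold in LV-NC replicate 1 than in replicates 2 and 3, and its log2 fold change in LV-*ATF7* was -1.50 (adjusted p = 0.0652).

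**Figure D3:**
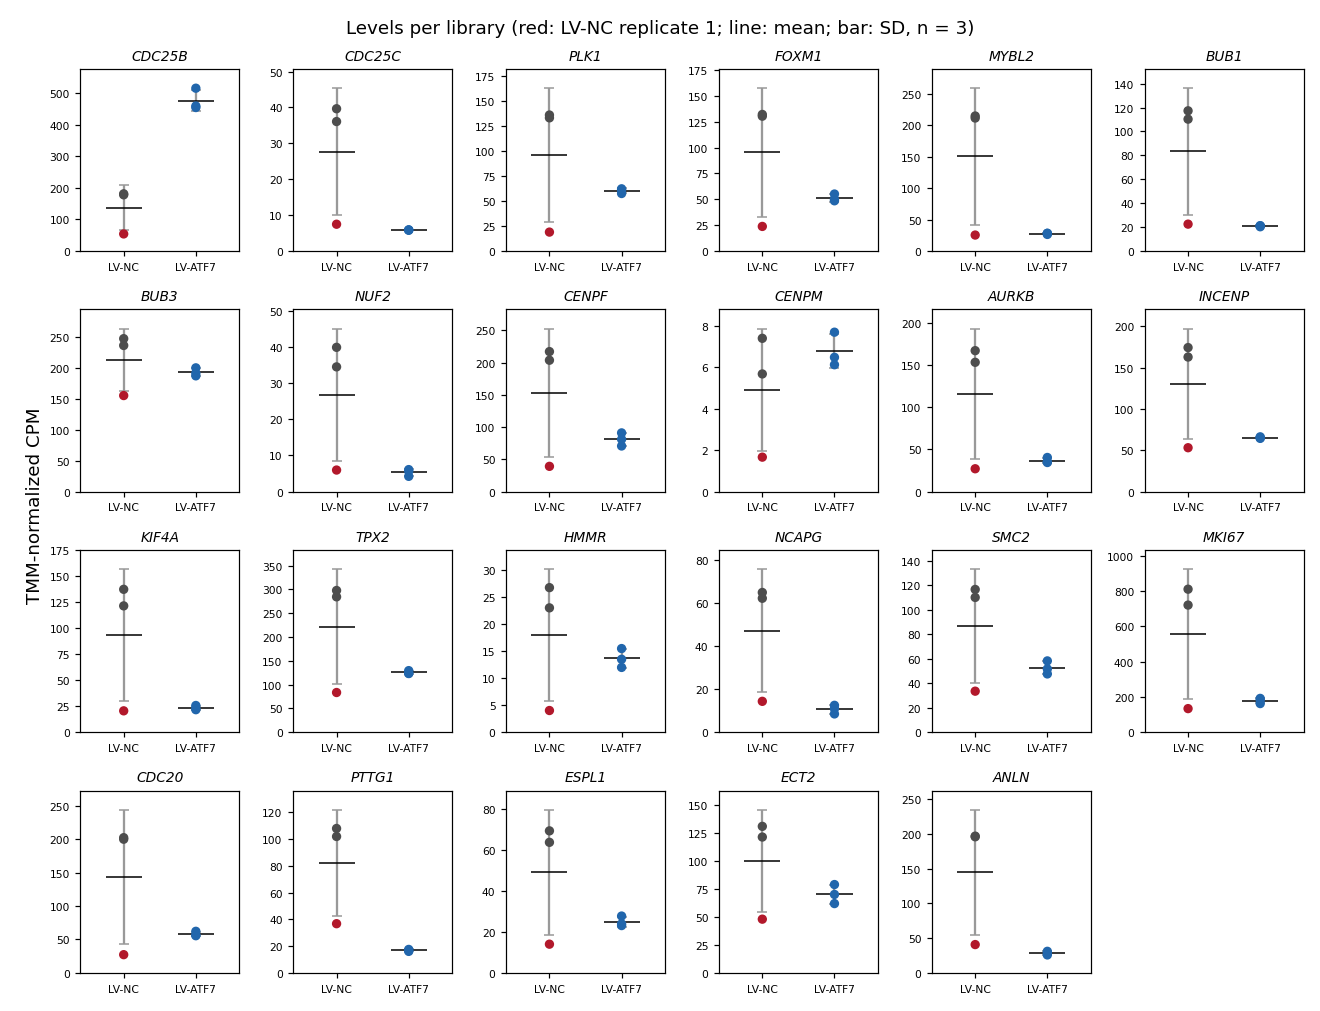
TMM-normalized CPM (y axis, from 0) of 23 named mitosis genes in LV-NC and LV-*ATF7* (x axis), 1 point per library, with LV-NC replicate 1 in red, the mean as a line and the SD (n = 3) as a bar. The 3 LV-*ATF7* libraries sit close together, whereas LV-NC replicate 1 lies far below replicates 2 and 3, for *MKI67* at 133.8 against 721.4 and 811.6 CPM.

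Of 8 spindle motors and assembly factors, 3 fell and 5 were not called, where 32.9% of all genes fell. *KIF4A*, a chromokinesin, fell from 93.0 ± 63.3 to 23.3 ± 2.08 CPM (SD, n = 3 each), with a log2 fold change of -1.99 (edgeR adjusted p = 0.0156), and its level was 20.5 CPM in LV-NC replicate 1. *KIF11*, the Eg5 motor that pushes the poles apart, was at 47.2, 189.9 and 179.7 CPM in LV-NC and at 42.9, 36.3 and 35.0 CPM in LV-*ATF7* and fell by 1.87. *KIF18A*, which damps chromosome oscillation, fell by 1.44. *TPX2*, the activator of Aurora A on the spindle, was at 83.3, 297.6 and 284.2 CPM in LV-NC and at 123.1, 129.3 and 123.8 CPM in LV-*ATF7*, and was not called (log2 fold change -0.82). *HMMR*, a spindle-associated hyaluronan receptor, was at 4.02, 26.8 and 23.04 CPM in LV-NC and at 13.5, 15.5 and 12 CPM in LV-*ATF7*, with the smallest log2 fold change of this role, -0.39, not called. For *HMMR*, every LV-*ATF7* library lay between LV-NC replicate 1 and the other LV-NC libraries. The remaining genes not called were *KIF2C*, *ASPM* and *DLGAP5*, at -1.35, -0.74 and -1.09.

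The condensin I complex compacts chromosomes and pairs the SMC2 and SMC4 ATPases with non-SMC subunits. Of its non-SMC genes, *NCAPG* and *NCAPH* fell by 2.15 and 1.75, and *NCAPD2*, which is not a member, fell by 1.07. *SMC2* and *SMC4*, which condensin II also uses, had log2 fold changes of -0.72 and -0.75 and were not called. The difference between these subunits was not tested. *NCAPG* was at 14.3, 64.7 and 62.1 CPM in LV-NC and at 12.4, 10.9 and 8.46 CPM in LV-*ATF7*, while *SMC2* was at 33.5, 116.7 and 110.2 CPM and at 58.3, 51.7 and 47.6 CPM. Exons of opposite-strand genes cover 33.1% of the exon bases of *NCAPG* and 25.6% of those of *SMC4*, so their counts are less certain. *TOP2A*, the topoisomerase that untangles sister chromatids, was at 110.7, 657.5 and 649.2 CPM in LV-NC and at 204.2, 175.3 and 159.8 CPM in LV-*ATF7*, with a log2 fold change of -1.39 just outside the threshold (adjusted p = 0.0525).

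Of the 4 genes of anaphase and sister separation, *PTTG1* fell and *CDC20*, *UBE2C* and *ESPL1* were not called, where 32.9% of all genes fell. *PTTG1* encodes securin, the inhibitor of separase, and had the lowest adjusted p of the 52 genes. Its levels were 36.7, 107.9 and 101.9 CPM in LV-NC and 16.02, 17.5 and 16.8 CPM in LV-*ATF7*, with a log2 fold change of -2.29 (standard error 0.37, edgeR adjusted p = 7.84e-04). LV-NC replicate 1 lay clearly above LV-*ATF7* here. *CDC20*, the activator of the anaphase-promoting complex, had the reverse order, with 27.1, 202.3 and 199.9 CPM in LV-NC and 56.5, 55.5 and 62.1 CPM in LV-*ATF7*, and a log2 fold change of -1.30 (adjusted p = 0.0866). *ESPL1*, which encodes separase itself, was at 14.0, 63.7 and 69.3 CPM in LV-NC and at 23.1, 23.9 and 27.7 CPM in LV-*ATF7*, with a log2 fold change of -0.98. *UBE2C*, the ubiquitin-conjugating enzyme of the same complex, had one of -1.28.

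In cytokinesis, *ANLN*, *KIF20A* and *KIF20B* fell and *KIF14*, *KIF23* and *ECT2* were not called, where 32.9% of all genes fell. *ANLN* encodes anillin, the scaffold of the contractile ring, and was at 40.6, 195.8 and 196.8 CPM in LV-NC and at 30.9, 28.2 and 25.7 CPM in LV-*ATF7* (log2 fold change -2.35, standard error 0.52, edgeR adjusted p = 0.00410). *KIF20B* fell by 1.70, and its level in LV-NC replicate 1, 40.4 CPM, was above each of the 3 LV-*ATF7* libraries, at 28.4, 25.9 and 22.0 CPM. *ECT2*, the exchange factor that activates RhoA at the furrow, was at 47.9, 130.7 and 121.2 CPM in LV-NC and at 78.8, 69.9 and 61.8 CPM in LV-*ATF7*, a log2 fold change of -0.51 that was not called. *KIF14* and *KIF23*, motors of the midbody, had log2 fold changes of -1.03 and -0.95.

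**Figure D4:**
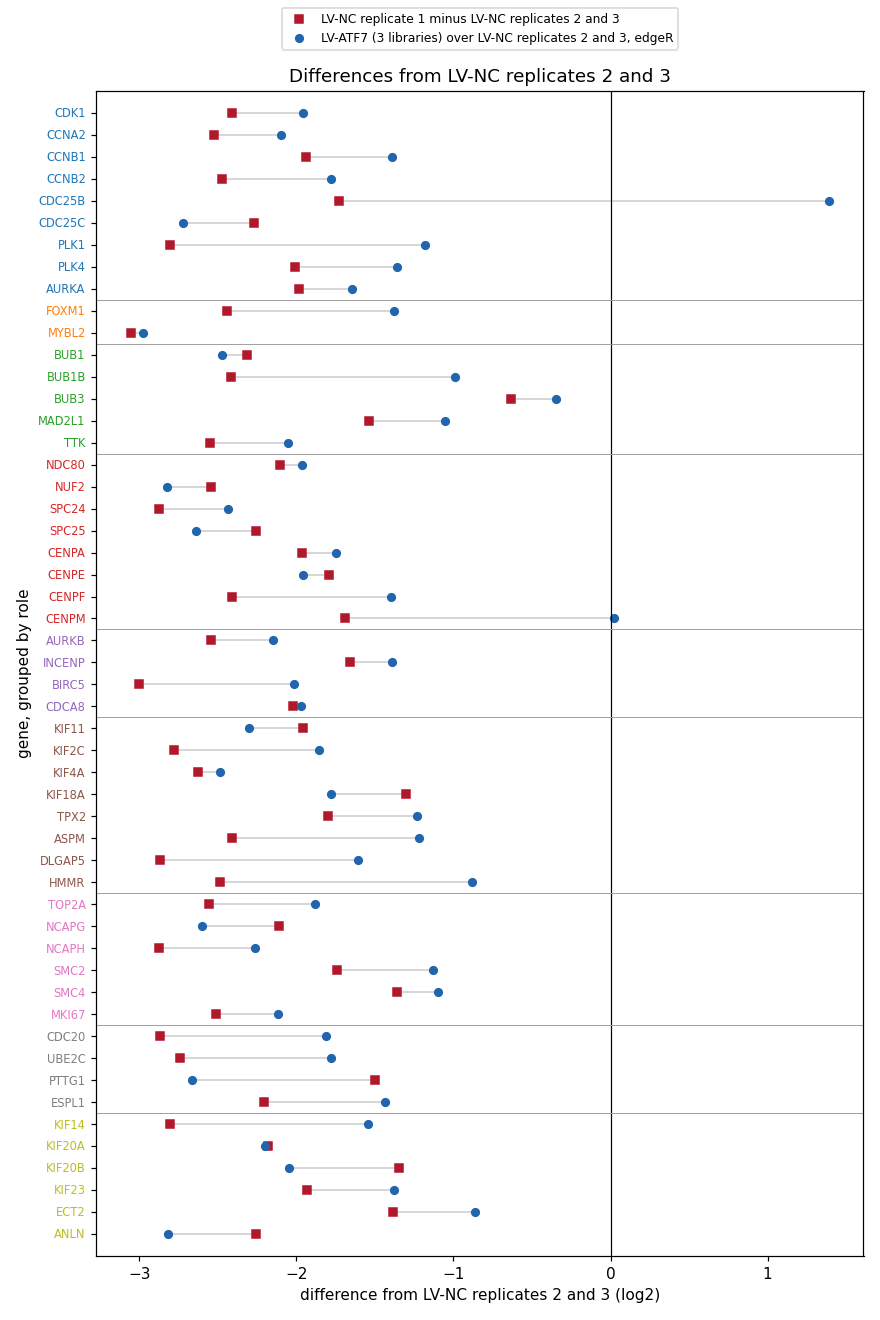
Difference from LV-NC replicates 2 and 3 on the log2 scale (x axis) for each of the 52 mitosis genes (y axis, by role), with LV-NC replicate 1 as red squares and the LV-*ATF7* libraries as blue circles. Both sets use the same 2 reference libraries, so their likeness is not a result. The squares run from -3.05 to -0.64, and all circles but those of *CDC25B* (1.39) and *CENPM* (0.021) lie below 0.

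Members were also described by whether a promoter window held TTTGAA. Only these exact letters and their reverse complement were searched, so a gene without them is not shown to lack a CHR. The 32 tested genes with TTTGAA in a window had a median difference of -2.26 in LV-NC replicate 1 against replicates 2 and 3, and the 12 without it had -2.42. In LV-*ATF7* against LV-NC, the medians of the log2 fold change were -1.30 and -1.70. In that fit 15 of the 32 and 10 of the 12 were called, where 67.6% of all genes were called. Without LV-NC replicate 1, the medians were -1.76 and -2.18 (log2), and the difference between these sets of genes was not tested. *NCAPH*, without the letters in its window, was lower by 7.33-fold in LV-NC replicate 1, and *KIF11*, with them, by 3.89-fold. The other 8 tested genes had no matched window.

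The rest of the mitosis machinery was read from a list of 106 further genes, of which 103 were tested. By the labels, 53 of them fell and 11 rose in LV-*ATF7*, with a median log2 fold change of -0.55, where 32.9% of all genes fell, 34.7% rose and 67.6% were called. Their 64 calls were 89 without LV-NC replicate 1, a fit that called 80.1% of all genes. The calls were 38 and 40 without LV-NC replicate 2 or 3, where 7720 and 7614 of 12468 genes were called. They were 39 without LV-*ATF7* replicate 1 or 2 and 33 without LV-*ATF7* replicate 3, where 7382, 7290 and 7463 of all genes were called. In LV-NC replicate 1, 60 of the 103 were lower by at least 1.5-fold than in replicates 2 and 3, against 10.7% of all genes. None was higher by that much, against 10.1% of all genes, and the median difference was -0.77. The roles within this list differed in size. The 24 other spindle, centriole and cytokinesis genes had a median difference of -1.61 in LV-NC replicate 1, and 15 of them fell in LV-*ATF7*, among them *NEK2*, a centrosomal kinase with a log2 fold change of -2.001, and *KIF15*, a spindle motor with one of -1.98. The 30 other kinetochore, centromere and checkpoint genes had a median of -0.81, and 14 fell and 2 rose, with *SKA1* and *KNL1*, both microtubule-attachment factors of the kinetochore, at log2 fold changes of -2.85 and -2.42.

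The remaining roles of this list had median differences closer to 0 than the 52 members in LV-NC replicate 1, with single genes far from their medians, and the roles were not tested against each other. The 16 genes of the anaphase-promoting complex and its partners had a median difference of -0.042 there. Of them, 3 were lower by at least 1.5-fold, against 10.7% of all genes, with *UBE2S* lower by 3.48-fold. In LV-*ATF7*, 8 of the 16 fell and 3 rose, where 67.6% of all genes were called, with *UBE2S*, a ubiquitin-conjugating enzyme of the complex, at a log2 fold change of -2.03 and *ANAPC1*, its large scaffold subunit, at 1.22. For cohesin, its regulators and other condensin subunits, the median difference was -0.47 in LV-NC replicate 1, and 6 of 13 fell and 3 rose in LV-*ATF7*, led by *CDCA5* (sororin) and *NCAPD2* at log2 fold changes of -1.61 and -1.07. These 2 genes were lower by 6.30-fold and 3.503-fold in LV-NC replicate 1. Among the 20 other entry kinases, inhibitors and DREAM or MuvB subunits, 10 fell and 3 rose, and the median difference in LV-NC replicate 1 was -0.75. *CDCA2*, a phosphatase-targeting protein of mitotic chromosomes, fell by 2.24. *RBL2*, which encodes the p130 pocket protein of DREAM, was at 25.2, 22.2 and 20.4 CPM in LV-NC and at 84.1, 81.6 and 75.4 CPM in LV-*ATF7* and rose by 1.83. LV-NC replicate 1 was close to replicates 2 and 3 for *RBL2*, so the LV-NC libraries were alike for it. Other DREAM or MuvB genes of this role went both ways in LV-*ATF7*. *LIN54* and *LIN52* fell by 1.51 and 0.63, *E2F4* and *TFDP1* rose by 0.34 and 0.76, and *RBL1* and *LIN9* were not called.

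Genes of DNA replication, the preceding phase, were compared as the nearest program. Of 37 tested, 12 fell and 9 rose in LV-*ATF7*, with a median log2 fold change of -0.33, where 32.9% of all genes fell and 34.7% rose, against 26 falls and 1 rise among the 52 mitosis genes. The 21 calls were 31 without LV-NC replicate 1, a fit that called 80.1% of all genes. They were 14 without LV-*ATF7* replicate 1 and 13 without LV-*ATF7* replicate 3, where 7382 and 7463 of 12496 genes were called. The median was 0.0055 without LV-NC replicate 3. *MCM3*, a subunit of the replicative helicase, rose by 1.92 and was at 44.2, 51.9 and 52.1 CPM in LV-NC and at 186.5, 177.5 and 196.9 CPM in LV-*ATF7*. Among the 12 that fell, *PCNA* was at 170.6, 252.0 and 244.1 CPM in LV-NC and at 77.6, 75.7 and 78.5 CPM in LV-*ATF7*, a log2 fold change of -1.52. In LV-NC replicate 1, 36 of the 37 were lower than in both other LV-NC libraries, against 43.9% of all genes. By at least 1.5-fold, 23 were lower, against 10.7% of all genes, and the median difference was -0.93. The mitosis genes thus had the larger median difference in that library, and no test was made between the lists.

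**Figure D5:**
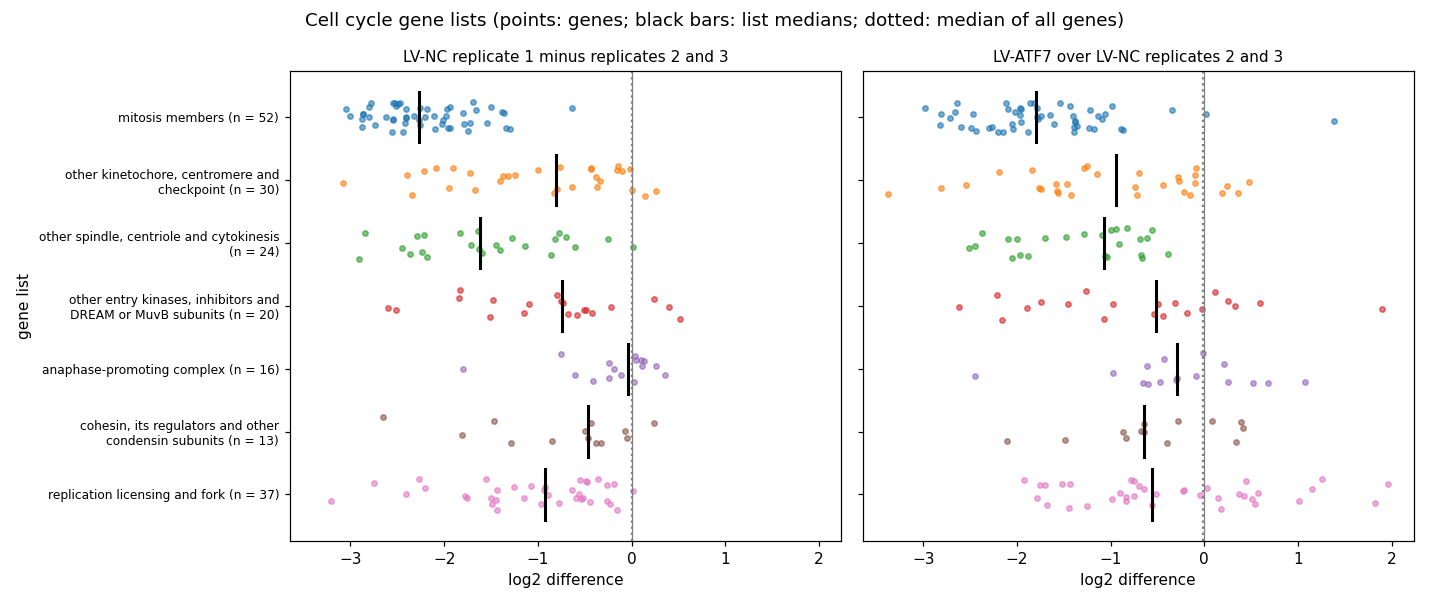
Log2 difference (x axis) of each gene (points) in the mitosis members, the 5 other mitosis roles and the replication genes (y axis), for LV-NC replicate 1 (left) and LV-*ATF7* (right), each against LV-NC replicates 2 and 3. Black bars are list medians, the dotted line is the median of all genes, and the members have the lowest median in both, -2.26 and -1.80.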

How the data were processed

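RNA-seq libraries of HaCaT cells, 3 labeled LV-NC and 3 labeled LV-*ATF7*, were analyzed. Per the study's methods, poly(A) mRNA was sequenced on an Illumina instrument. The deposited values used here are the authors' raw read counts, 1 per gene and library. The submitters' processing notes name GRCh38, while the aligner, counting program, annotation and strandedness are not given in the sources used here. The table also holds FPKM and the authors' own comparison (fold changes and p-values), and none of these was used.

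Normalization was by TMM and testing by edgeR 4.0.16 (filterByExpr, glmQLFit, glmQLFTest) in R 4.3.3, without covariates, with Benjamini-Hochberg adjustment over 12462 genes and a threshold of 0.05. The standard error was the size of the log2 fold change divided by the square root of F. LV-NC replicate 1 was set against replicates 2 and 3 by log2(CPM + 0.5), without a test. Gene positions are those of GENCODE release 29. Python 3.11.15 was used for the annotation and plots. Members, roles and lists were chosen with earlier results of these data known. Genes were named by a rule: per role, the highest mean count and the largest and smallest absolute log2 fold change, *MKI67*, members not called and those against the direction of their role, and the 2 largest changes called per further role. A gene that the rule names is not reported here. Further members and genes of the other lists were named after their values were seen.

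Alternatives were DESeq2 1.42.0, scaling by library size alone or by upper quartile, testing without a filter or with at least 10 counts required everywhere, limma 3.58.1 voom with weights per sample, a block for the replicate number, omission of 1 library at a time, a minimum fold of 1.5, and, for LV-NC replicate 1, a fold of 2 and a prior of 2 CPM. In counts simulated on 12462 genes with 200 of them changed, 146 of the 200 were called, and 7.01% of calls were on unchanged genes. The simulated libraries of a group shared the same mean per gene, so none stood apart as LV-NC replicate 1 did. Far fewer genes were changed than were called in the data, so these rates do not carry over to the calls given here.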

Additional observations from a re-analysis of the deposited data

How the results depend on the processing

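The number of mitosis genes called, 27, was 29 with DESeq2 and 32 with library size only, and it was 51 with limma voom and sample quality weights. Of 12462 genes tested, these 3 alternatives called 8420, 8559 and 10391, against 8429 in the main fit. Over the 6 fits that each left out a library, the number of mitosis genes called ran from 9 to 51. It was lowest without LV-*ATF7* replicate 3 and highest without LV-NC replicate 1, which raised the spread of the LV-NC group. Those fits called 7463 of 12496 and 10011 of 12495 genes. For the further mitosis genes the 64 calls ran from 33 to 89 across the 6 fits. For the replication genes the 21 calls ran from 13 to 31, with the same libraries at the ends. In these fits the direction of each of the 52 members was kept, and among the replication genes the median log2 fold change of -0.33 was 0.0055 without LV-NC replicate 3, where the cause was not tested. Scaling by library size alone shifted the median of all genes by -0.16 (log2). In LV-NC replicate 1, 51 of 52 members stayed lower by 1.5-fold with library size only, and 51 were lower by 2-fold. For libraries of the same replicate number, the correlations of deviations from the group means were 0.058, -0.021 and 0.065. Deviations in LV-NC mostly reflect replicate 1, so these correlations cannot show whether libraries were paired. A fit with a replicate block called 16 members and 8210 of 12462 genes. Counts limit *SPC24* and *CENPM* most, with 25 and 31 in their lowest library.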
